A study of Arabidopsis thaliana with 3 samples.

Results

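These results concern 1331 TSN1 binding sites in 651 Arabidopsis thaliana genes in which every listed site carried the authors' label for the 3' untranslated region (3' UTR). They were chosen from the sites in protein-coding genes by that label alone, and make up 1331 of 5295 such sites and 651 of 1403 protein-coding targets. All 651 genes carried the same 3' UTR label in the authors' target table, and the number of sites given there matched the sites listed for all 651. For comparison, 163 genes had only sites labelled as coding sequence (CDS), 455 had sites with both of these labels and no other, and 134 had other combinations. Unlike the 651 genes, those with CDS sites only include some outside the nuclear chromosomes. Region labels chose the genes, so their share of the targets is a description and no finding.

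Sites were mapped by iCLIP2, which locates each protein-RNA contact from the place where reverse transcription halts after ultraviolet crosslinking and pull-down. The plants carried pTSN1::GFP:TSN1, a fusion of green fluorescent protein to TSN1 driven by the TSN1 promoter, in the Col-0 wild-type background, so the plants' own TSN1 was present too. There was 1 group of 3 replicates and no control: seedlings 14 days old, grown at 20 °C with 16 h of light and 8 h of dark, harvested at ZT10 after 2000 mJ/cm2 at 254 nm, with tissue of 3 plates (about 3 g) pooled per replicate and enriched for aerial parts. The deposited lists merge the replicates, so read depth and replicate spread are unknown, and the Wilson 95% intervals of shares and 95% order-statistic intervals of medians given here cover counting error of sites or genes only. All 8 leaf marker genes looked up were TSN1 targets, GAPB among the 651 genes, against 1 of 9 root markers, which was not one of them.

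The 3' UTR is the stretch of a messenger RNA between the stop codon and the poly(A) tail, and proteins that bind it can act on the transcript's stability, translation and place in the cell. TSN1 (Tudor staphylococcal nuclease 1) joins nuclease-like domains to a Tudor domain and is known in plants from stress granules, from cytoplasmic bodies in which messenger RNA is taken apart, and from the endoplasmic reticulum (ER). In animals its relative SND1 is also known to bind RNA.

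Most of the 651 genes had a single site. There were 362 genes with 1 site (55.6%, 51.8 to 59.4), 144 with 2, 60 with 3, 51 with 4 to 5, 29 with 6 to 9 and 5 with 10 or more, and the mean was 2.04 ± 1.92 sites (SD over genes). Genes with CDS sites only had a like number, with a mean of 2.04 ± 2.06 and 60.1% (52.5 to 67.3) at 1 site. Genes with both labels cannot have fewer than 2 sites and had a median of 5. The share of targets that met the rule fell with the number of sites: 76.4% of the 474 targets with 1 site, 56.0% (49.9 to 62) of the 257 with 2, 40.5% (33.0 to 48.6) of the 148 with 3, 23.9% (18.7 to 30.1) of the 213 with 4 to 5, 14.0% (9.93 to 19.4) of the 207 with 6 to 9 and 4.81% (2.07 to 10.8) of the 104 with 10 or more. A gene with more sites has more chances to hold 1 with another label, so this fall is in part built into the rule. A further 240 genes with 2 or more sites missed the rule by exactly 1 site. Those nearest to it were AT4G19410, a pectin-modifying esterase with 18 sites labelled 3' UTR and 1 labelled CDS, BGAL4, a beta-galactosidase with 16 and 1 in an intron, FNR2, a ferredoxin-NADP oxidoreductase with 14 and 1, BIP1, an ER chaperone of the Hsp70 family with 13 and 1, and PGK1, the plastid phosphoglycerate kinase, with 12 and 1.

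**Figure D1:**
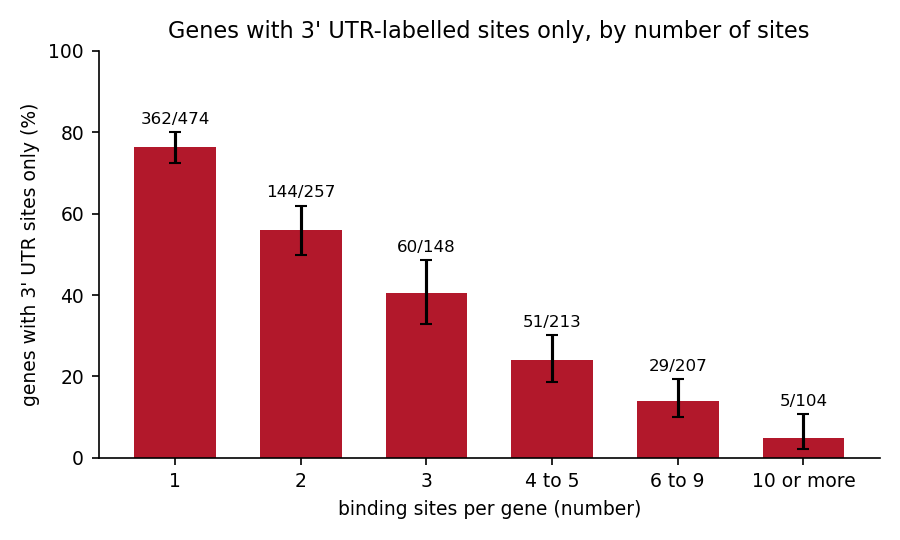
Share of protein-coding targets (y axis, %) in which every site was labelled 3' UTR, by the number of sites in the gene (x axis); bars give the share, error bars the Wilson 95% interval, and the numbers above them genes over targets. The share goes from 76.4% at 1 site to 4.81% at 10 or more.

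The gene with the most sites was SNG1, which encodes the sinapoylglucose:malate acyltransferase that makes the ultraviolet screen sinapoylmalate in the leaf epidermis. Its 24 sites lay on the plus strand of chromosome 2 (TAIR10) between 9786616 and 9789896, with scores from 7.18 to 61.6 and a median of 21.6. The score is the authors' value per site, without a stated unit, and serves here only to rank and compare sites within the list. The sites were spread over the gene rather than gathered in 1 place: neighbours lay a median of 100 nt apart, and the widest gap was 532 nt. The highest site was 2521 nt from the 3' end of a gene span of 4249 nt, and the runner-up, with a score of 47.8, was 827 nt from that end. SNG1 has 6 coding transcripts in the RefSeq table used for gene spans, and belongs to a family of serine carboxypeptidase-like genes whose related copies can share reads.

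Plastid carbon metabolism supplied the runner-up. GAPB, a subunit of the plastid glyceraldehyde-3-phosphate dehydrogenase of the Calvin cycle, had 16 sites on chromosome 1 between 16127805 and 16129651. Their scores ran from 7.15 to 37.7, and the highest was the site nearest to the 3' end, 246 nt from it; the other sites of GAPB reached at most 22.2. The farthest lay 2088 nt upstream of the 3' end of a span of 2543 nt, although RefSeq lists 1 coding transcript for the gene. AT3G11630, described as a thioredoxin superfamily protein, had 12 sites with scores from 8.01 to 33.1, and AT4G01150, a CURVATURE THYLAKOID 1A-like protein of the thylakoid membrane, had 11 with scores from 8.86 to 55.6. In both of these genes, as in GAPB, the highest site was among the 3 nearest to the 3' end. SFP1, a sugar transporter of the major facilitator superfamily, also had 11 sites, with a highest score of 17.1.

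Of the next genes, 4 had 9 sites each. They were GAPC2, the cytosolic glyceraldehyde-3-phosphate dehydrogenase of glycolysis, TOM2A, a membrane protein that tobamoviruses need to multiply, CESA1, a catalytic subunit of primary-wall cellulose synthase, and AT3G13410, described as an enzyme of plastid isoprenoid synthesis. Their highest scores were 21.1, 21.5, 16.8 and 30.8 in that order. GPAT4, an acyltransferase of cutin synthesis, had 8 sites and a highest score of 30.1.

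**Figure D2:**
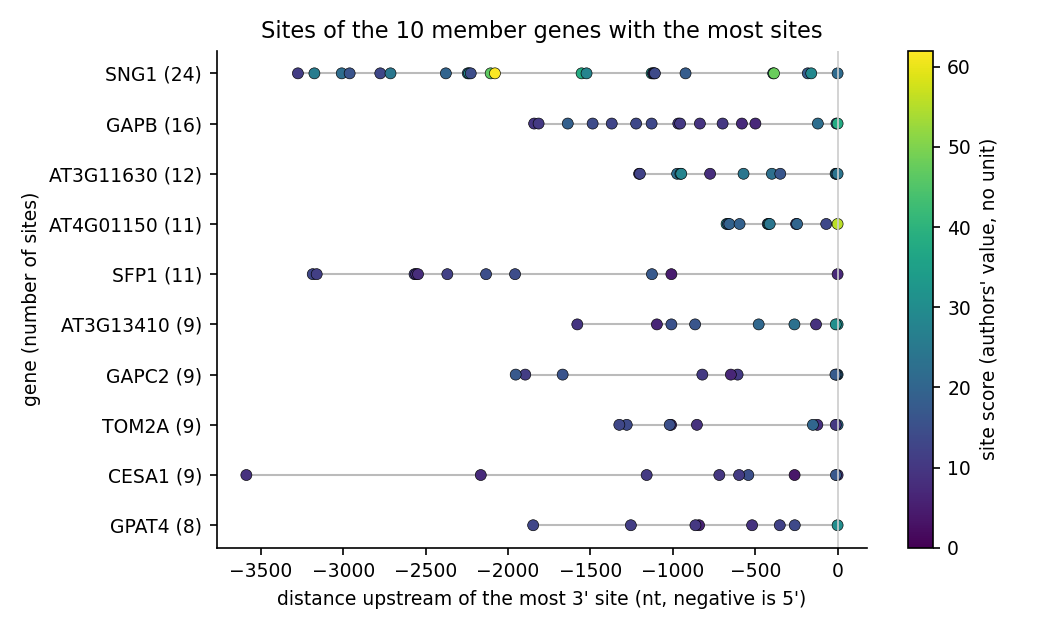
Sites of the 10 genes with the most sites, placed by their distance in nt from the most 3' site of the gene (x axis, negative is 5') and coloured by the authors' score. SNG1, SFP1 and CESA1 hold sites over 3276, 3186 and 3589 nt, and AT4G01150 holds 11 sites within 674 nt.

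A few genes carried high scores in a small cluster. AT5G42530, a gene without a described function, had the highest site of all 1331, with a score of 118, and its neighbours 7 nt and 32 nt away scored 84.7 and 19.1. OEP6, a small protein of the plastid outer envelope, had 3 sites within 16 nt that scored 77.3, 80.4 and 85.8. These genes were unlike SNG1: a handful of nucleotides held all of their sites. The highest score in a gene with 1 site was 95.3, in TPPI, a gene of the haloacid dehalogenase-like hydrolase superfamily. That site lay 1267 nt from the 3' end of a span of 4015 nt, and 5 of the 6 called peaks in the gene fell inside it.

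High scores also occurred in small photosystem I subunits and in a surface lipid gene. PSAO had 5 sites with scores of 52.3, 41.4, 15.4, 35.5 and 38.7 in order from the 3' end, and PSAH2 had 3 with 46.5, 52.0 and 37.8. LTPG1, a lipid transfer protein anchored to the plasma membrane that takes part in wax export, had 5 sites in 2 clusters: 2 sites within 91 nt of the 3' end scored 41.0 and 49.0, and 3 sites more than 350 nt from it scored 18.2 to 24.8.

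Among the 289 genes with 2 or more sites, many sites stood close together while others were far apart. The median distance between neighbouring sites was 141 nt (119 to 168, over 680 pairs), with quartiles of 28.8 and 345 nt. At most 10 nt separated 85 pairs (12.5%, 10.2 to 15.2), at most 20 nt 139 pairs (20.4%, 17.6 to 23.6) and at most 100 nt 290 pairs (42.6%, 39 to 46.4). Neighbours in genes with CDS sites only were within 20 nt in 13.0% (8.76 to 18.9) of 169 pairs, and 3' UTR sites of genes with both labels in 20.2% (18.0 to 22.6) of 1170 pairs. Close neighbours were thus as common among 3' UTR-labelled sites of the other genes. A site is 5 nt wide, so a distance of 5 nt, the smallest found, means that sites touch.

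The tightest groups were found by the smallest median distance among genes with 4 or more sites. In SBPASE, the sedoheptulose-bisphosphatase of the Calvin cycle, all 4 sites lay within 40 nt, 148 to 188 nt from the 3' end of the gene, with scores from 8.71 to 21.8. HIR2, a membrane protein of the SPFH family, had 5 sites within 276 nt and a median distance of 15 nt. AT3G18050, a GPI-anchored protein, and MEE59, named for a maternal effect on the embryo, had 4 each with a median distance of 16 nt. PDIL1-2, a protein disulfide isomerase-like protein of the ER, had 3 sites close together and another 1096 nt away.

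The distance from the first to the last site of a gene had a median of 356 nt (249 to 477) over these 289 genes. It was at most 50 nt in 68 genes and at most 500 nt in 166, and over 1000 nt in 69 (23.9%, 19.3 to 29.1). The spread was much the same in genes with CDS sites only (358 nt, 194 to 523). It was wider in genes with both labels (1170 nt, 1071 to 1249), which also had more sites and by the rule hold sites of 2 labels. Their 3' UTR-labelled sites alone had a median spread of 483 nt (424 to 594), over 1000 nt in 24.8% of genes. The widest spreads were 4138 nt in BGAL2, a beta-galactosidase with 4 sites, 3589 nt in CESA1, 3276 nt in SNG1, 3194 nt in NRT1.1, a nitrate transporter and sensor with 4 sites, and 3186 nt in SFP1. In BGAL2 the scores were 8.33 to 17.1, and in NRT1.1 they were 3.36 to 11.8. These distances are along the genome and include any intron between sites.

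The 3' UTR label did not always mean a place near the end of the gene. Positions were taken against gene spans of the RefSeq TAIR10.1 table, which matched 650 of the 651 genes and 1330 sites, 1324 of them within their gene's own span. The median site was 376 nt (346 to 403) from the 3' end, at a relative position of 0.803 (0.786 to 0.817) along the gene, where 1 is the 3' end. Of genes with CDS sites only, 149 of 163 with 269 of 332 sites matched a span, and most of the others lie outside the nuclear chromosomes. The median relative position of the matched CDS sites was 0.369 (0.343 to 0.408). Within 500 nt of the 3' end lay 790 sites (59.4%, 56.7 to 62), against 16.7% (12.7 to 21.7) of sites in genes with CDS sites only and 48.4% (46.0 to 50.9) of 3' UTR-labelled sites where a gene had both labels. The most 3' site of each gene was within 500 nt of the end in 529 of 650 genes (81.4%, 78.2 to 84.2), at a median of 232 nt.

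The remaining sites reached far into the gene. More than 1000 nt from the 3' end lay 286 sites in 139 genes, and 217 sites (16.3%, 14.4 to 18.4) lay in the 5' part of the span, before its middle. Such sites were found in genes with 1 and with several coding transcripts in RefSeq. Of the 706 sites in 367 genes with 1 coding transcript in RefSeq, 116 sites in 59 genes (16.4%, 13.9 to 19.3) lay more than 1000 nt from the 3' end and 94 in 60 genes lay before the middle of the span, among them sites of GAPB, SFP1 and CESA1. In genes with 2 or more coding transcripts, 170 of 624 sites (27.2%, 23.9 to 30.9) lay more than 1000 nt away. The share of sites in such genes was 29.7% up to 100 nt from the 3' end and 59.4% beyond 1000 nt. For these reasons the 651 genes are best described as genes whose sites all carry the label. Exon borders and the authors' transcript models were not used here, so which of the sites overlap coding exons or introns of another transcript was not tested. In addition, 64 of the 1331 sites (4.81%) overlapped the span of another annotated gene on either strand.

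**Figure D3:**
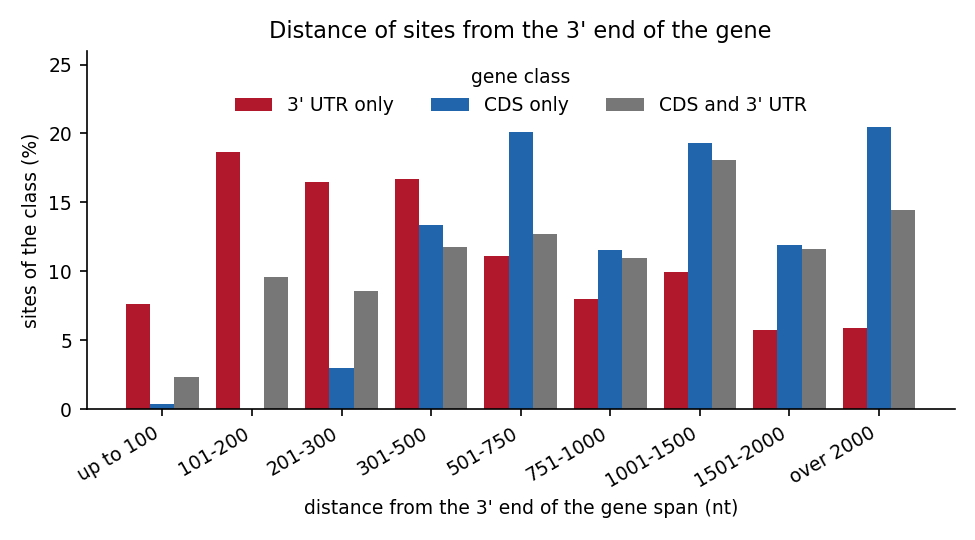
Share of the sites of each gene class (y axis, %) by distance from the 3' end of the gene span (x axis, nt). Sites of the 651 genes, in red, lie within 500 nt in 59.4% of cases, and sites of genes with CDS sites only, in blue, in 16.7%.

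Scores in the 651 genes were low for the list. The median was 9.71 (9.37 to 9.99), with quartiles of 6.40 and 13.4 and a range from 0.487 to 118, and 412 sites (31.0%, 28.5 to 33.5) were above the median of all listed sites, 12.5. Above it lay 39.5% (34.3 to 44.8) of sites in genes with CDS sites only and 58.6% (56.2 to 61.0) of 3' UTR-labelled sites where a gene had both labels. As in the site numbers and spreads above, the CDS-only value includes genes outside the nuclear chromosomes, which were not scored apart. Part of that gap went with the number of sites. The median score was 8.39 (7.80 to 9.22) in genes with 1 site, 8.80 (8.07 to 9.43) with 2, 10.3 (9.21 to 11.6) with 3, 10.2 (9.13 to 11.1) with 4 to 5, 11.0 (9.99 to 12.4) with 6 to 9 and 16.8 (13.5 to 19.6) with 10 or more, the last over 5 genes of which SNG1 gave 24 of 74 sites.

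At a matched number of sites the gap to genes with both labels was smaller in some bins and remained in others. The 3' UTR sites of genes with both labels had median scores of 10.4 (9.14 to 11.4) at 2 sites, 10.6 (9.48 to 11.5) at 3, 14.0 (13.1 to 15) at 4 to 5, 14.8 (14.0 to 15.8) at 6 to 9 and 15.3 (14.35 to 16.4) at 10 or more. The intervals overlapped at 2 sites, at 3 sites and at 10 or more, and did not overlap from 4 to 9 sites. Sites of genes with CDS sites only had a median of 8.56 (6.68 to 10.4) at 1 site and 8.78 (7.48 to 10.3) at 2, close to the values of the 651 genes there, and 14.0 (11.7 to 15.3) at 4 to 5. The amount of each RNA was not measured, and whether the score follows it was not tested. In such bulk aerial tissue, fewer cells that express a gene and less RNA per cell cannot be told apart.

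**Figure D4:**
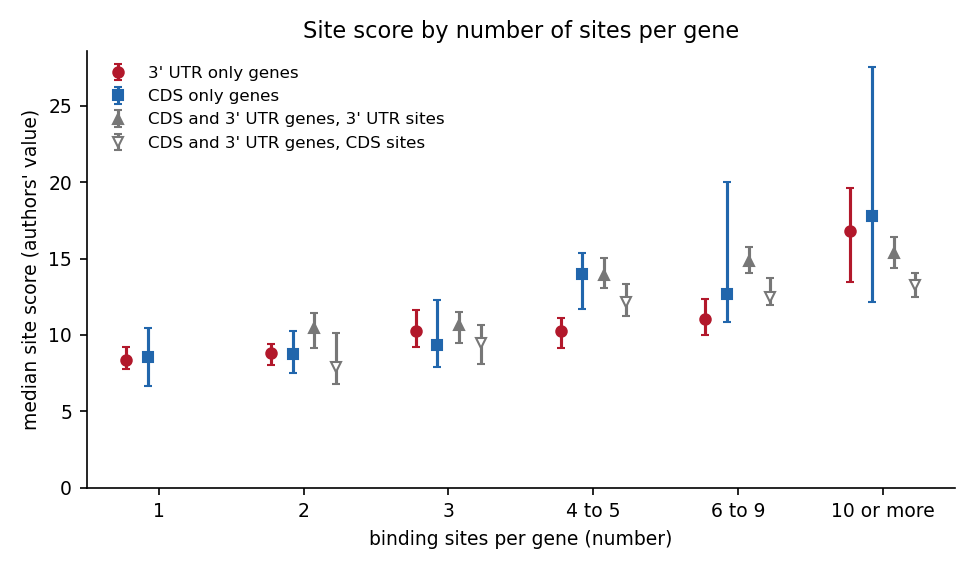
Median site score (y axis, the authors' value) by number of sites per gene (x axis), with 95% intervals; red, the 651 genes; blue, genes with CDS sites only; grey, genes with both labels, their 3' UTR sites filled and their CDS sites open. The red medians go from 8.39 at 1 site to 16.8 at 10 or more, and are under the filled grey ones from 4 to 9 sites.

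Scores did not follow the distance from the 3' end, but they were higher in sites with a close neighbour. Across 6 ranges of distance, from up to 100 nt to over 1000 nt, the median score stayed between 9.0 and 10.6 with overlapping intervals. Sites with another site within 20 nt had a median of 11.6 (10.8 to 12.8, over 257 sites in 104 genes), those with the nearest at 21 to 100 nt 10.1 (9.27 to 10.7) and those with the nearest beyond 100 nt 9.72 (9.13 to 10.5). Neighbouring sites share a gene and its RNA level, so they are not independent. The groups were also not matched for the number of sites per gene, with which the score rose as given above. Whether closeness itself goes with the score was not tested.

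Scores also varied within a gene. In the 289 genes with 2 or more sites, the highest score was a median of 2.12 times the lowest (1.89 to 2.29, at most 9.27 times). Which of the sites was highest had no fixed side in genes with 2 sites: it was the more 3' one in 73 of 144 (50.7%, 42.6 to 58.7). With 3 sites it was the most 3' one in 24 of 60 genes (40.0%, 28.6 to 52.6) and the most 5' one in 17.

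Called peaks, the single nucleotides from which sites are built, were found beyond the sites in nearly all of these genes. The 650 genes with a span held 17827 called peaks, a median of 19.5 per gene, against 29 in genes with CDS sites only and 61 in genes with both labels. Inside sites lay 16.1% of them, between sites 27.1%, downstream of the last site 16.9% and upstream of the first site 39.8% (39.1 to 40.6). In genes with both labels, whose first site lies farther 5', 13.4% (13.0 to 13.8) were upstream. Of the 650 genes, 610 (93.8%) had a called peak upstream of all their sites, 212 (32.6%) had 1 more than 500 nt upstream, and in 139 (21.4%) the highest called peak of the gene was upstream of every site. Before the middle of the span lay 30.5% (29.8 to 31.2) of peaks, against 16.3% of sites. Label chose the sites and not the peaks, so this difference is in part built into the rule. In genes with CDS sites only it was reversed, with 53.3% of peaks and 70.6% of sites. In genes with both labels it was 45.3% of peaks and 41.6% of sites. The authors' peaks are not assigned to transcript regions, so whether the upstream ones lie in a 3' UTR was not tested, and a peak in overlapping gene spans counts for each gene.

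Single genes show the difference. SBPASE had 84 called peaks, of which 10 lay inside its 4 sites and 74 upstream of them, 52 by more than 500 nt, and the highest upstream peak scored 14.2 against 21.8 for its highest site. In AT5G42530 the highest upstream peak scored 70.4, with 23 of 34 called peaks upstream. ROC3, a cytosolic cyclophilin, had an upstream peak of 36.6, above its highest site at 35.5. In 1 gene, BAM5, a beta-amylase, both called peaks lay inside its site, and 3 genes, whose sites fell outside the gene span, had no called peak within the span. How the authors went from called peaks to sites is not given in the sources used here, so why these peaks gave no site was not tested.

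The functions of the genes were read from the descriptions in the authors' target table with 18 groups of word patterns, which placed 416 of the 651 genes in 1 group, 17 in more and 218 in none. Of all protein-coding targets, 46.4% had only 3' UTR-labelled sites, 76.4% of those with 1 site and 31.1% of those with 2 or more, and each group is set beside these shares. Membership follows the number of sites, so a group of genes with few sites has a higher share for that reason alone, and both strata are given where they matter.

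Ribosomal proteins, the parts of the ribosome beside its RNA, were the largest group. They made up 71 of the 651 genes (10.9%, 8.74 to 13.5), which is 71 of 112 ribosomal protein targets (63.4%, 54.2 to 71.7). Most had 1 site, and the stratified shares were 48 of 59 (81.4%) with 1 site and 23 of 53 (43.4%) with 2 or more, nearer to their backgrounds than the whole. Scores were moderate: the group's median was 9.20 and its highest site 26.6, in emb2184, described as ribosomal protein L31. AT1G29070, ribosomal protein L34, had 3 sites with scores of 6.70 to 22.0, and RPL27 had 3 with 12.4 to 18.3. The word patterns did not separate ribosomal proteins of the cytosol, such as RPS15, from those of plastids. Many ribosomal protein genes have near-identical paralogs, and for those the copy that was bound is uncertain. Whether this holds for the genes named here was not examined. Translation factors had 10 of 16 (62.5%, 38.6 to 81.5), with 3 of 5 at 1 site and 7 of 11 (63.6%) at 2 or more. Among them were AT5G19510, an EF1B subunit with 3 sites within 24 nt, AT1G15270, a TMA7 protein associated with the translation machinery with 4, EIF4A1, an RNA helicase of translation initiation with 2 sites, and the near-identical elongation factor genes AT1G07920 and AT1G07930.

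Photosynthesis genes were seldom of this kind. Only 22 of 85 targets (25.9%, 17.8 to 36.1) had 3' UTR-labelled sites alone. It was 12 of 22 with 1 site and 10 of 63 (15.9%) with 2 or more, below the background in both strata. The protein-coding targets also include genes outside the nuclear chromosomes, where none of the 651 lie. How many of the 85 are such genes was not counted, so the share among nuclear photosynthesis genes alone was not determined. Of the 12 photosystem I subunit genes looked up, all were targets and 3 were among the 651, PSAO, PSAH2 and PSAD-2, while PSAH-1, the paralog of PSAH2, and PSAD-1 had CDS sites as well. Other members were SBPASE, CP12-2, a small regulator that joins Calvin cycle enzymes, with 5 sites and a highest score of 30.1, and LHCB6, a minor antenna protein of photosystem II, with 3 and 26.7. CAB2 had 1 site with a score of 28.1, and its gene family is nearly identical in sequence.

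Photorespiration, which recovers carbon lost when Rubisco takes up oxygen, had 5 of 10 targets (50%, 23.7 to 76.3), near the background of 46.4%. With 2 or more sites the share was 4 of 9 (44.4%), beside 31.1% of all such targets. The glycine decarboxylase complex is part of photorespiration. Of 8 genes for its subunits that were looked up, 5 were targets and 4 of these had 3' UTR-labelled sites only. They were the T protein AT1G11860 with 8 sites and a highest score of 16.5, the H proteins AT1G32470 with 4 and 16.8 and GDCH with 3 and 41.6, and mtLPD1, the L protein, with 1 and 12.4. GLDP1, the P protein, had 18 sites, of which 13 were labelled 3' UTR and 4 CDS. CAT2, the leaf peroxisomal catalase, had 6 sites with scores up to 14.1. The complex and the other gene families named by their members were chosen after their values were seen.

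Among glyceraldehyde-3-phosphate dehydrogenases, GAPB, GAPC2 and GAPC1 were among the 651, with 16, 9 and 4 sites. GAPA and GAPA-2, which encode the partner subunit of GAPB, each had 7 sites and at least 1 in CDS. GAPC1 and GAPC2 are close copies, so reads may be shared between them.

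Genes of mitochondrial respiration had 14 of 19 (73.7%, 51.2 to 88.2), of which 11 had 1 site. Their scores were low to moderate: ATP3 and ATP5, the gamma and delta subunits of the mitochondrial ATP synthase, each had 2 sites with highest scores of 12.2 and 9.96, and AT3G08610, an NADH dehydrogenase subunit, reached 20.4 with 1. With 2 or more sites the share was 3 of 7. Subunits of the vacuolar proton ATPase, which acidifies the vacuole and the secretory compartments, had 8 of 13 (61.5%, 35.5 to 82.3), with 2 of 3 at 1 site and 6 of 10 (60%) at 2 or more. AVA-P2, a proteolipid of the membrane ring, had 8 sites, VHA-A3, the vacuolar form of the large membrane subunit, had 6, and VHA-A, the catalytic subunit, had 3.

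Genes of the ER and secretory pathway had 31 of 50 (62%, 48.2 to 74.1), with 15 of 17 at 1 site and 16 of 33 (48.5%) at 2 or more. The oligosaccharyltransferase complex attaches sugar chains to new proteins in the ER. Of 9 of its genes looked up, 5 were targets and 4 of these had 3' UTR-labelled sites only, beside 46.4% of all protein-coding targets. They were DGL1 with 6 sites, HAP6 with 2, and the catalytic subunits STT3A and STT3B with 1 each. Of all targets with 1 site, 76.4% met the rule. Scores in DGL1 ran from 4.32 to 17.7, over 2205 nt. Endomembrane protein 70 genes, for proteins of Golgi and endosomal membranes, contributed 5 of 8 targets, beside the same 46.4%. Among the 5 were AT1G14670 and EMP1 with 6 sites each and AT5G25100 with 5.

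Transporters and channels were near the background, with 44 of 96 (45.8%, 36.2 to 55.8). They covered many substrates: SFP1 and ERDL6 for sugars, SWEET1 and SWEET12 for sugars moved down their gradient, NRT1.1 and NRT1.7 for nitrate, AUX1 for auxin, OPT3 for metals in the phloem, and CLC-A for anions at the vacuole. AT1G61890, a MATE efflux protein, had 8 sites over 2304 nt with a highest score of 12.8, ERDL6 had 7 with 18.7, SWEET12 had 5 with 14.7, and AUX1 had 3 with 12.4. Plasma membrane aquaporins mostly had both labels: 7 of their 9 targets did, beside 455 of all 1403 protein-coding targets. PIP2B with 7 sites up to 33.7 and PIP2E with 5 up to 26.8 had the 3' UTR label alone.

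Cell wall genes had 24 of 69 (34.8%, 24.6 to 46.6), with 12 of 21 at 1 site and 12 of 48 (25%) at 2 or more. Next to CESA1 stood CESA5 with 2 sites, TBL25, of a family of wall polysaccharide acetyltransferases, with 7, and the pectin-making galacturonosyltransferase GAUT1 with 3. Lipid, wax and sterol genes had 30 of 84 (35.7%, 26.3 to 46.4), with 21 of 28 (75%) at 1 site and 9 of 56 (16.1%) at 2 or more, below the background of 31.1%. Of 26 cuticle genes picked with values in view, 14 were targets, of which 9 had 3' UTR-labelled sites only, 1 CDS sites only and 4 both. Among all protein-coding targets, 46.4% had 3' UTR-labelled sites only. The 9 were LTPG1, GPAT4, GPAT8, the wax exporters ABCG11 with 5 sites and ABCG12 with 4, the fatty acid elongation enzymes CER10 with 5 and PAS2 with 3, CER3 of alkane synthesis with 1, and CER9, a ubiquitin ligase, with 1. Highest scores in ABCG12, CER10 and ABCG11 were 24.1, 17.8 and 13.8. In the same pathway KCS6, the main elongase of wax synthesis, had 9 CDS and 5 3' UTR sites.

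Transcription and chromatin genes had 24 of 33 (72.7%, 55.8 to 84.9), with 14 of 16 at 1 site and 10 of 17 (58.8%) at 2 or more. They included histone genes, led by AT4G40030 with 4 sites and a highest score of 12.7, AT1G25550, a MYB-like factor with 3 sites, the B-box protein BBX14 and the transcription factors NAC083, WRKY15, MYBL2 and LBD37 with 1 or 2 sites each. Genes named for stress responses had 26 of 38 (68.4%, 52.5 to 80.9), with 14 of 17 at 1 site and 12 of 21 (57.1%) at 2 or more. SAG21, a late embryogenesis abundant protein linked to senescence and oxidative stress, had 3 sites up to 36.0, PCC1, which is controlled by pathogens and the clock, 4 up to 21.5, AT4G04340, named for early response to dehydration, 4 up to 12.5, and the cold-regulated COR15B and KIN2 1 each with 11.8 and 11.3. The share with 2 or more sites lay above the background of 31.1% in both of these groups, and also among translation factors, vacuolar ATPase subunits, ER and secretory genes and ribosomal proteins. It was above it too for photorespiration (44.4%), respiration (42.9%), genes without a stated function (41.4%) and RNA-binding and processing genes (37.5%). For transporters and channels it was 31.4%, and in the remaining groups it was lower than the background. The lists were chosen with earlier results known and no test of the difference was made.

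Signalling genes had 20 of 47 (42.6%, 29.5 to 56.7), with 12 of 18 (66.7%) at 1 site and 8 of 29 (27.6%) at 2 or more. All 4 calmodulin targets, CAM1, CAM2, CAM4 and CAM5, were among the 651, with 5 sites in all and scores of at most 7.54. CAM1, CAM2 and CAM5 had 1 site each, and 76.4% of all targets with 1 site met the rule. Calmodulin genes encode almost the same protein, and the assignment of reads among them is uncertain. TCH3, a calmodulin-like protein induced by touch, had 7 sites with scores from 4.93 to 22.4. The 14-3-3 proteins, which bind phosphorylated partners, had 7 targets. Of these GRF3, GRF8, GRF9 and GRF10 had 3' UTR-labelled sites only, 1 or 2 each, beside 46.4% of all protein-coding targets. GF14 PHI and GRF6 had CDS sites only, and GRF1 had sites with both labels and 1 with another. AT3G14840, a leucine-rich repeat receptor kinase, had 5 sites over 2950 nt with scores of at most 7.66. BAK1, the co-receptor of brassinosteroid and immune receptors, had 1 site with a score of 3.96.

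In each of the other groups the interval of the whole share held the background of 46.4%. Proteolysis and ubiquitin genes had 30 of 61 (49.2%, 37.1 to 61.4), with 20 of 22 at 1 site and 10 of 39 (25.6%) at 2 or more. They were led by UBC10, a ubiquitin-conjugating enzyme with 5 sites, and AT3G45310, a cysteine proteinase with 3. Redox genes had 18 of 50 (36.0%, 24.1 to 49.9), with 8 of 8 at 1 site and 10 of 42 (23.8%) at 2 or more, beside 76.4% and 31.1% of all targets. Chaperones and prolyl isomerases had 13 of 28 (46.4%, 29.5 to 64.2), with 9 of 12 and 4 of 16 in these strata. RNA-binding and processing genes had 8 of 13 (61.5%, 35.5 to 82.3), with 5 of 5 and 3 of 8. The last were led by CSP41A, a chloroplast RNA-binding protein with 5 sites up to 21.4, and AT4G30010, described as an RNA helicase, with 2 adjoining sites. Of the chaperones, the cyclophilins ROC4 of the plastid stroma and ROC3 had scores up to 37.5 and 35.5, and no other chaperone of the group passed 16. Genes without a stated function had 52 of 94 (55.3%, 45.3 to 65), AT5G42530 among them, with 6 sites in AT5G11420 and 4 in AT2G18690.

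**Figure D5:**
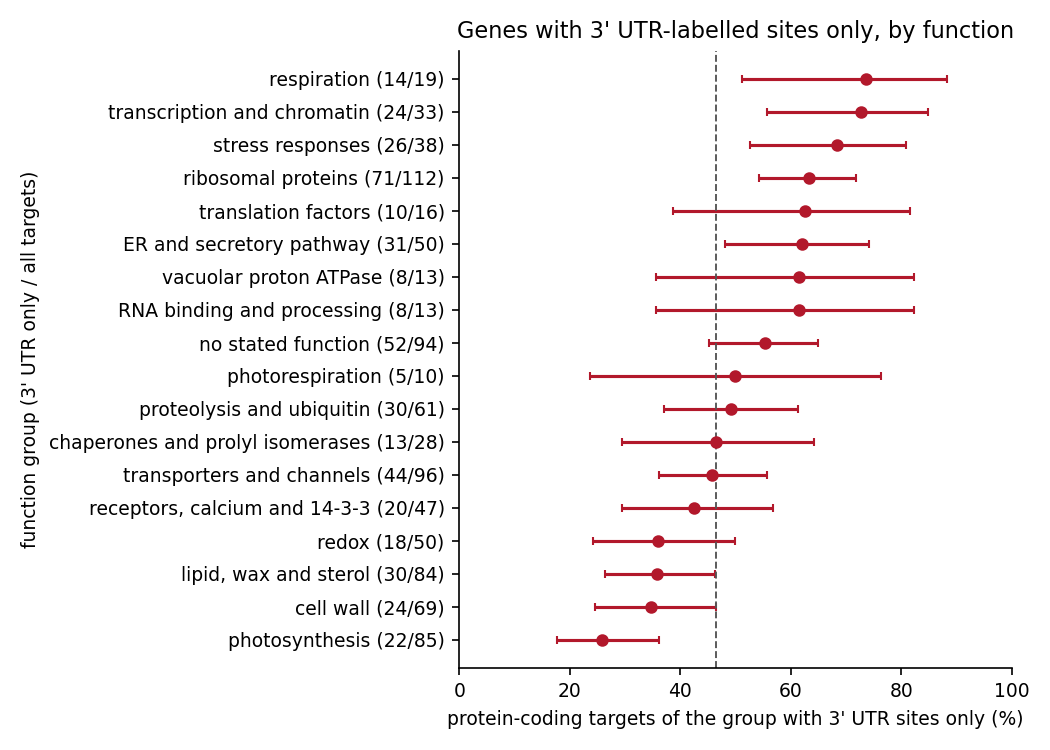
Share of the protein-coding targets of each function group (y axis, with gene counts) in which every site was labelled 3' UTR (x axis, %); points are shares, lines Wilson 95% intervals, and the dashed line is the 46.4% of all protein-coding targets. Respiration lies highest at 73.7% and photosynthesis lowest at 25.9%.

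The 651 genes lay on all 5 nuclear chromosomes in even proportion, from 44.4% of the protein-coding targets of chromosome 4 to 49.2% of those of chromosome 5.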

How the data were processed

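The deposited files give pooled lists of the iCLIP2 experiment: peaks of 1 nt, sites of 5 nt, annotated or not, and a gene table. Per the submitters' processing notes the tools were FastQC 0.11.5, STAR 2.7.3a, SAMtools, UMI-tools 1.0 and bedtools 2.27.1, with the TAIR10 genome. Libraries had 18 PCR cycles and 50 nt reads with molecular identifiers, per the labels' protocols. No step of peak calling, replicate merging or region labelling is described in the sources used. The score of a peak or site is the authors' own value without a stated unit, and the track line of the deposited site list says that it was matched with an option called max. The number of binding sites per gene is a count in the authors' deposited target table. Depth per library is unknown.

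Sites of protein-coding genes were grouped by the authors' region labels. Spacing was taken between the centres of listed sites, and spread from the first to the last. Distances to the 3' end and transcript numbers came from RefSeq gene spans (TAIR10.1), which matched 650 of the 651 genes; no coordinate of that table is printed. Function groups were word patterns on the descriptions, revised once after the first were seen to match "superfamily" by its letters, and a gene may fall in several. Classes and intervals were tested on simulated data. No test was run over sites or genes, which share RNA and are not replicates. Base composition and motifs at the sites were planned and not analysed here.

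Genes named are the 10 with the most sites, 10 by highest summed score, 5 by highest site, the 5 with the widest spread, the 5 with the closest sites among those with at least 4, the 2 leading genes of each function group and the 5 nearest misses. Family genes and further group examples were picked with their values in view. The genes and lists were chosen with earlier results of these data known. Python 3.11.15, pandas 2.3.3, numpy 2.4.6, scipy 1.17.1 and matplotlib 3.10.9 were used.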

Additional observations from a re-analysis of the deposited data

How the results depend on the processing

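No paired analysis was possible because the lists pool the replicates, and for the same reason no replicate could be left out. The number of genes with 3' UTR-labelled sites only was 373 with sites above the median score alone, 289 with at least 2 sites, and 400 when every site had to lie within 500 nt of the 3' end, an alternative added after seeing the data. The median spread was 766 nt in genes with at least 3 sites. The median score was 9.22 with 1 median per gene, 10.9 with the highest site per gene, 10.3 in genes with at least 2 sites, 9.36 without the 10 genes with the most sites, and 8.39 in genes with 1 site (added after seeing the data). The share of sites near the 3' end was 42.7% within 300 nt, 78.5% within 1000 nt, and 81.4% within 500 nt for the most 3' site of each gene. Ribosomal proteins held 7.66% of sites and 7.96% of genes with at least 2 sites. Of 53 shares of the other function groups under alternatives, 43 stayed within the interval of the reported share and 10 did not, among them transcription and chromatin at 13.5% with the patterns as first written. The alternatives that needed sequence were not run. Without a control or separate replicates, background of the pull-down cannot be told apart from TSN1 binding, and unknown depth limits how far genes with few or low-scoring sites can be called free of sites elsewhere.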
